A study of Canis lupus familiaris with 18 samples.

Results

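The lysyl oxidase genes LOX, LOXL1, LOXL2, LOXL3 and LOXL4 were followed in high grade oligodendroglioma (HGO) of pet dogs. They were taken by symbol from the deposited counts, and they were 5 of the 29993 genes listed. All 5 were among the 16495 genes kept by the filter on low counts. The family was chosen by the LOXL4 counts, which were lower in French bulldogs and uneven among the comparison libraries, so these 2 features of LOXL4 are described here without a test. The other 4 genes were taken by name, not by their values.

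RNASeq was performed on formalin-fixed, paraffin-embedded (FFPE) prosencephalic tumor tissue, and 18 libraries were compared. There were 11 libraries from French bulldogs and 7 from the comparison group, which held 4 boxers and 3 Boston terriers. All tissue came from surgical resections made before any trial treatment, and the labels name no treatment or allele and give breed as the only difference between the groups. Age, sex and tumor site could not be matched to the comparison libraries and did not enter any fit, so they and other inherited differences between the breeds cannot be told apart from breed. French bulldog libraries carry numbers between S1 and S12, and comparison libraries carry S18 to S21 or S1 to S3. The meaning of these numbers is not stated, so a difference between library series cannot be told apart from breed either.

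The lysyl oxidases are copper-dependent enzymes that oxidize lysine residues of collagen and elastin outside the cell, which starts the crosslinks that stiffen a matrix. LOX and LOXL1 are secreted as pro-enzymes, whereas LOXL2, LOXL3 and LOXL4 carry scavenger receptor cysteine-rich domains in front of the catalytic domain. In the brain, most collagen lies in the basement membranes of vessels and in the leptomeninges.

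Several properties of the libraries bear on the values that follow. Totals ranged from 8212452 to 13169880 counts, and 3 counts, taken as the detection floor, equalled 0.223 to 0.351 normalized CPM (counts scaled to a common library size). French bulldog 6 stood apart: its mean distance to the other libraries was 327, against 132 to 188 for each of the others. It had 0 counts of OLIG2, a defining gene of the oligodendrocyte lineage, where every other library had at least 1137, and it had 27819 counts of CD163, a macrophage scavenger receptor, where the others had 22 to 521. A single case number appears in the labels of both French bulldog 2 and French bulldog 8. Their counts were more alike than those of any other of the 153 pairs of libraries (chi-square per gene of 8.72, with 26.4 for the next pair). The study lists French bulldogs 2 and 8 with the same age, sex and tumor site, so they may be 1 dog. Their counts were further apart than sampling noise, which does not decide this, since pieces of 1 tumor could also differ. They were counted as separate libraries except where their sum is named, so the 11 French bulldog libraries may come from 10 dogs. The labels state no separate cultures or dissections, so the p-values measure the spread between these libraries. In bulk tissue, fewer cells of a type and less RNA per cell cannot be told apart. Levels are not compared between genes, since gene lengths were not used.

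LOXL4 (ENSCAFG00000009324) had the largest breed difference of the family. In normalized CPM, the French bulldogs lay between 0.297 and 4.76 with a median of 2.13. Of the comparison group, boxers 1, 3, 4 and 5 had 163, 62.9, 2.96 and 5.30 normalized CPM, and Boston terriers 2, 6 and 7 had 4.33, 11.4 and 15.3. All 11 French bulldogs were below the comparison median of 11.4, but the ranges overlapped: 6 French bulldogs lay below the lowest comparison library and 5 of the 7 comparison libraries lay above the highest French bulldog. Every French bulldog was below every comparison library for 0.0485% of all genes, and the groups failed to overlap in either direction for 0.0546%. LOXL4 was not among them, nor was any other member.

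The size of that difference depended on 2 libraries. Boxer 1 held 61.4% of the LOXL4 level summed over the comparison group, and boxers 1 and 3 together held 85.2%. The group means were 2.19 ± 1.70 (SD, n = 11) and 37.8 ± 58.9 (SD, n = 7) normalized CPM, a ratio of 17.25, whereas the ratio of the medians was 5.34. The log2 fold change of French bulldogs over the comparison group was -4.10 (SE 0.79). No other of the 16495 genes tested had a log2 fold change as low or lower (LOXL4 itself is 0.00606% of them), and 46.3% had one below 0. Without boxers 1 and 3, a choice made after their values were seen, the comparison mean was 7.86 ± 5.27 (SD, n = 5) and the log2 fold change was -1.83 (SE 0.61).

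**Figure D1:**
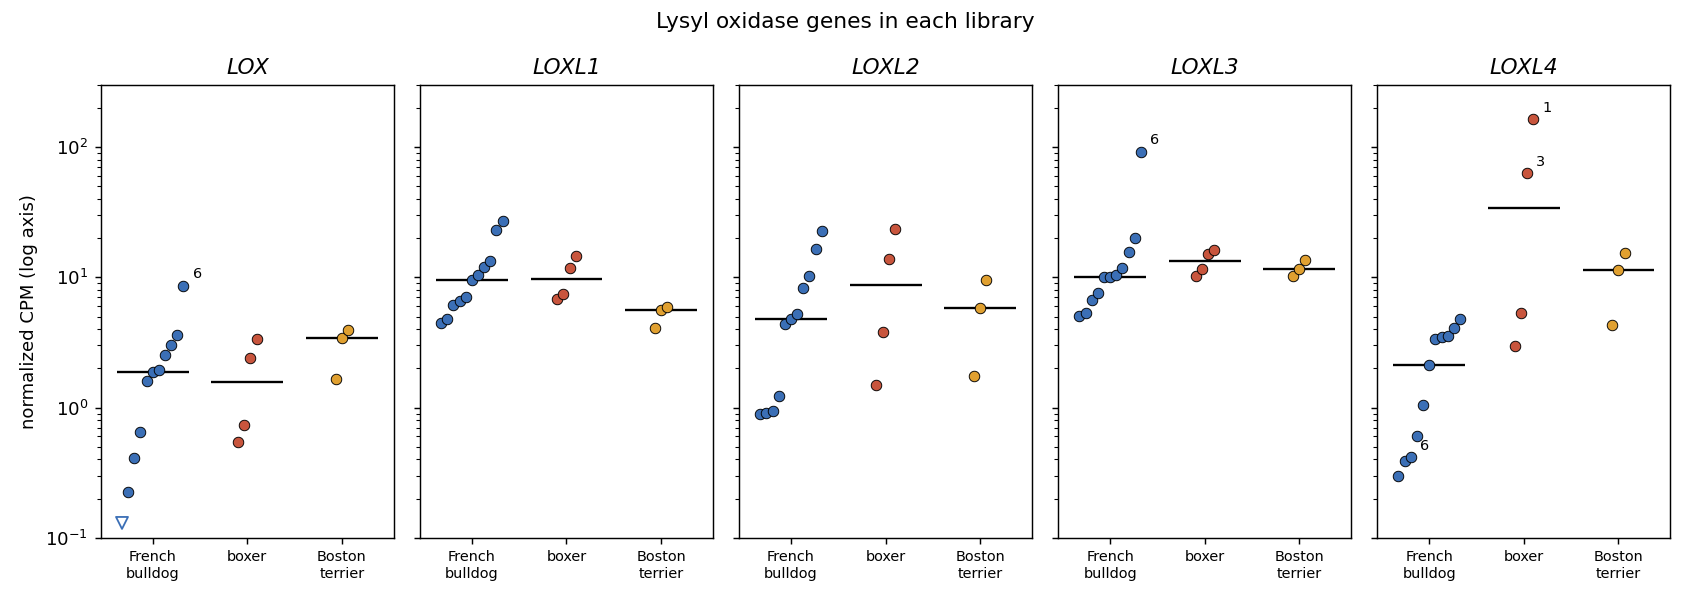
Normalized CPM of the 5 lysyl oxidase genes on a log axis, with 1 point per library in order of level and a horizontal line at the median of each breed. The open triangle marks a French bulldog library with 0 counts of LOX. French bulldog 6 (92.2 for LOXL3) and boxers 1 and 3 (163 and 62.9 for LOXL4) are numbered where they lie apart.

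Among the French bulldogs, LOXL4 was low throughout, and the libraries fell over more than 1 order of magnitude. French bulldogs 1, 3, 6 and 10 had 4 to 6 counts, close to the floor of 3 counts. French bulldog 5 had 9 counts, and the remaining 6 libraries had 24 to 53 counts, or 2.13 to 4.76 normalized CPM. The SD of log2 CPM was 1.31 in French bulldogs, which was larger than for 78.3% of all genes, and 2.1 in the comparison group, larger than for 99.5%. French bulldog 6 was at 0.417 normalized CPM, within the range of the other French bulldogs, and the log2 fold change without it was -3.94.

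Breed and library number within the comparison group were also examined for LOXL4. The boxers had 58.4 ± 74.8 (SD, n = 4) and the Boston terriers 10.3 ± 5.57 (SD, n = 3) normalized CPM, and boxers 4 and 5 lay below Boston terriers 6 and 7. Against the boxers alone the log2 fold change of French bulldogs was -4.73, and against the Boston terriers alone it was -2.23. Boxers 1 and 3 carry library numbers from the set S18 to S21, and the other set, S1 to S3, gave a log2 fold change of -2.28 against -4.72 for the first. What the library numbers stand for is not stated. Both sets hold both breeds, and with the set as a block in a fit of the 7 comparison libraries the log2 fold change of boxers over Boston terriers was 1.45 (SE 2.38) for LOXL4, beside 2.46 (SE 1.25) without the block. Summed marker levels in boxers 1 and 3 were 2110 and 2030 normalized CPM for the oligodendrocyte lineage (2030 to 3990 in the comparison group), 626 and 353 for fibroblasts and leptomeninges (160 to 626), and 245 and 398 for endothelium (245 to 422). Boxer 3 had the lowest oligodendrocyte sum, and boxer 1 the highest fibroblast and the lowest endothelial sum. Their myelin sums were 939 and 867 normalized CPM, where the comparison group ran from 867 to 1600. In the remaining marker sets neither boxer was at an extreme of the group. Their sums were 2050 and 2680 for astrocytes (591 to 3170), 244 and 389 for neurons (89 to 993) and 84.4 and 116 for macrophages and microglia (74.3 to 117). They were 269 and 293 for pericytes and smooth muscle (100 to 446) and 8.62 and 7.77 for ependyma and choroid plexus (2.24 to 9.19). These values are set beside LOXL4 without a test, since its levels in these libraries chose the genes.

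The other 4 genes were not called different between the breeds. By edgeR's quasi-likelihood test, 1 of 16495 genes (0.00606%) had an adjusted p-value under 0.05, and it was none of these 4. With French bulldogs 2 and 8 summed, the same test called 0 genes. At an unadjusted p-value under 0.05 the test gave 1744 genes (10.6%), 586 of them lower in French bulldogs (3.55%), again without LOX, LOXL1, LOXL2 or LOXL3. DESeq2 called 58 of 20850 genes (0.278%), and none of these 4 was among them.

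LOX (ENSCAFG00000028461) is the founding enzyme of the family and acts on fibrillar collagen and elastin. Its counts were low: 0 in French bulldog 8, 2 in French bulldog 2, and 4 to 83 in the other French bulldogs. The French bulldogs ranged from 0 to 8.64 normalized CPM with a median of 1.88. Boxers 1, 3, 4 and 5 had 2.40, 0.731, 3.34 and 0.540 normalized CPM, and Boston terriers 2, 6 and 7 had 3.95, 3.43 and 1.66. The ranges overlapped, with French bulldog 6 the highest of all 18 libraries and French bulldogs 8 and 2 the lowest. The group means of 2.23 ± 2.43 (SD, n = 11) and 2.29 ± 1.36 (SD, n = 7) normalized CPM gave a log2 fold change of -0.04 (SE 0.69, 95% confidence interval -1.48 to 1.40, edgeR adjusted p = 0.992). Without French bulldog 6 the log2 fold change was -0.48, and with French bulldogs 2 and 8 summed it was 0.08.

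LOXL1 (ENSCAFG00000023910), which is needed for the upkeep of elastic fibres, leaned the other way. French bulldogs ranged from 4.45 to 27.1 normalized CPM with a median of 9.57, and the highest values, 27.1 and 23.0, belonged to French bulldogs 8 and 2. The comparison libraries lay between 4.06 and 14.5. French bulldogs had 11.3 ± 7.42 (SD, n = 11) and the comparison group 8.03 ± 3.74 (SD, n = 7) normalized CPM, a log2 fold change of 0.49 (SE 0.38, 95% confidence interval -0.30 to 1.29, edgeR adjusted p = 0.647). The log2 fold change was 0.32 with French bulldogs 2 and 8 summed and 0.92 without boxers 1 and 3. LOXL1 was not called in any of these settings.

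LOXL2 (ENSCAFG00000009187), an enzyme known to crosslink the collagen IV of basement membranes, varied widely in every breed. French bulldogs ranged from 0.892 to 22.5 normalized CPM with a median of 4.75. Boxers 1, 3, 4 and 5 had 1.5, 23.6, 3.81 and 13.8, and Boston terriers 2, 6 and 7 had 5.83, 1.76 and 9.61 normalized CPM. Boxers 1 and 3, which shared the high LOXL4, stood at the opposite ends of the comparison group for LOXL2. The group means were 6.89 ± 7.07 (SD, n = 11) and 8.56 ± 7.96 (SD, n = 7) normalized CPM, with a log2 fold change of -0.31 (SE 0.69, 95% confidence interval -1.75 to 1.13, edgeR adjusted p = 0.911). That fold change turned to 0.19 without boxer 3 and to 0.27 against the Boston terriers alone. The SD of log2 CPM was 1.63 among French bulldogs and 1.43 among the others, which was larger than for 86.5% and 96.4% of all genes.

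LOXL3 (ENSCAFG00000008358), a gene needed for normal palate and spine development, stood out in 1 library. French bulldog 6 had 92.2 normalized CPM (885 counts) and the other 10 French bulldogs had 5.08 to 19.9 (50 to 204 counts). The comparison libraries lay between 10.2 and 16.3. French bulldog 6 alone supplied 47.3% of the summed French bulldog level, and 6 of the 11 French bulldogs were below the lowest comparison library while 2 were above the highest. The mean of 17.7 ± 25.1 (SD, n = 11) against 12.7 ± 2.42 (SD, n = 7) normalized CPM gave a log2 fold change of 0.48 (SE 0.52, 95% confidence interval -0.60 to 1.57, edgeR adjusted p = 0.763). Without French bulldog 6 the French bulldog mean was 10.3 ± 4.68 (SD, n = 10) and the log2 fold change turned to -0.26. In French bulldog 6 the summed macrophage and microglia markers were 4660 normalized CPM, against 40.3 to 202 in the other French bulldogs, and the oligodendrocyte lineage markers were 43.9, against 1220 to 7140, with 2 of 8 genes at 0. Over the French bulldogs, with 2 and 8 taken as 1, the relation of LOXL3 with the macrophage sum did not pass the threshold (r = 0.934, permutation adjusted p = 0.117, and rho = 0.709, permutation adjusted p = 0.412). Without French bulldog 6, r was 0.702 and rho 0.6 (exact permutation adjusted p = 0.271 and 0.504). The relation with the oligodendrocyte sum over all French bulldogs did not pass the threshold either (r = -0.956, permutation adjusted p = 0.0553). LOXL3 and DOK1 overlap in the UU_Cfam_GSD_1.0 annotation, and whether the counting used strand is not stated, so reads of the pair may not have been kept apart.

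Whether the comparison group had 1 level of each gene was asked by setting boxers against Boston terriers, in a fit of all 3 breeds. In that fit edgeR called 0 of 17934 genes and gave 381 (2.12%) at an unadjusted p-value under 0.05, and DESeq2 called 0 and gave 791. The log2 fold changes of boxers over Boston terriers were -0.78 (SE 1.10) for LOX, 0.96 (SE 0.58) for LOXL1, 0.89 (SE 1.13) for LOXL2 and 0.17 (SE 0.82) for LOXL3, each with an edgeR adjusted p of 1. Boxers had the higher fitted level in 51.6% of all genes. Each of the 4 boxers was above each of the 3 Boston terriers for LOXL1, at 6.87 to 14.5 against 4.06 to 5.93 normalized CPM, which was also so for 3.66% of all genes. For LOXL4 the log2 fold change was 2.49 (SE 1.19).

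The 5 genes were not called as moving together. Pearson's r and Spearman's rho of log2 CPM were computed for the 10 pairs within the French bulldogs (2 and 8 summed, 10 values) and within the comparison group (7 values), with p-values adjusted over the 20 relations. The LOXL4 pairs of the comparison group are left aside, since those values chose the genes, and none of the other relations had an adjusted p-value under 0.05 by permutation test. The strongest in French bulldogs was LOX with LOXL3 (r = 0.774, permutation p = 0.0134, adjusted p = 0.268; rho = 0.745, permutation p = 0.0172, adjusted p = 0.341). It was r = 0.751 without the 2 libraries farthest from the LOX median, and r = 0.765 and rho = 0.65 without French bulldog 6. In the comparison group the same pair had the opposite sign, with r = -0.604 and rho = -0.821 (exact permutation p = 0.0341 for rho, adjusted p = 0.341). The sets of library numbers held 4 and 3 comparison libraries, too few for a value within each.

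Genes whose level followed that of a lysyl oxidase were ranked by Spearman's rho of log2 CPM over the 18 libraries, among 11583 genes with a symbol. The values describe the best of many and carry no test, and depth and the makeup of the tissue are shared by all points. For LOXL2, ENPP1, an ectonucleotide pyrophosphatase, had a rho of 0.940, PDGFB, the platelet-derived growth factor B chain, 0.897, and COL4A2, a chain of collagen IV, 0.895. Without French bulldog 6 these values were 0.953, 0.953 and 0.941.

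In the comparison group, COL4A2 and LOXL2 ranked the 7 libraries identically (rho = 1), from boxer 1 (55.8 normalized CPM of COL4A2) to boxer 3 (357), and in French bulldogs their rho was 0.882. French bulldog 3 had both the highest LOXL2 of its breed and the highest COL4A2 of all libraries (585). French bulldog 6 was the exception, with 44.4 normalized CPM of COL4A2 and 3.75 of PDGFB at a LOXL2 level of 4.37. Between the breeds, COL4A2 had a log2 fold change of -0.34 (SE 0.54, edgeR adjusted p = 0.864).

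**Figure D2:**
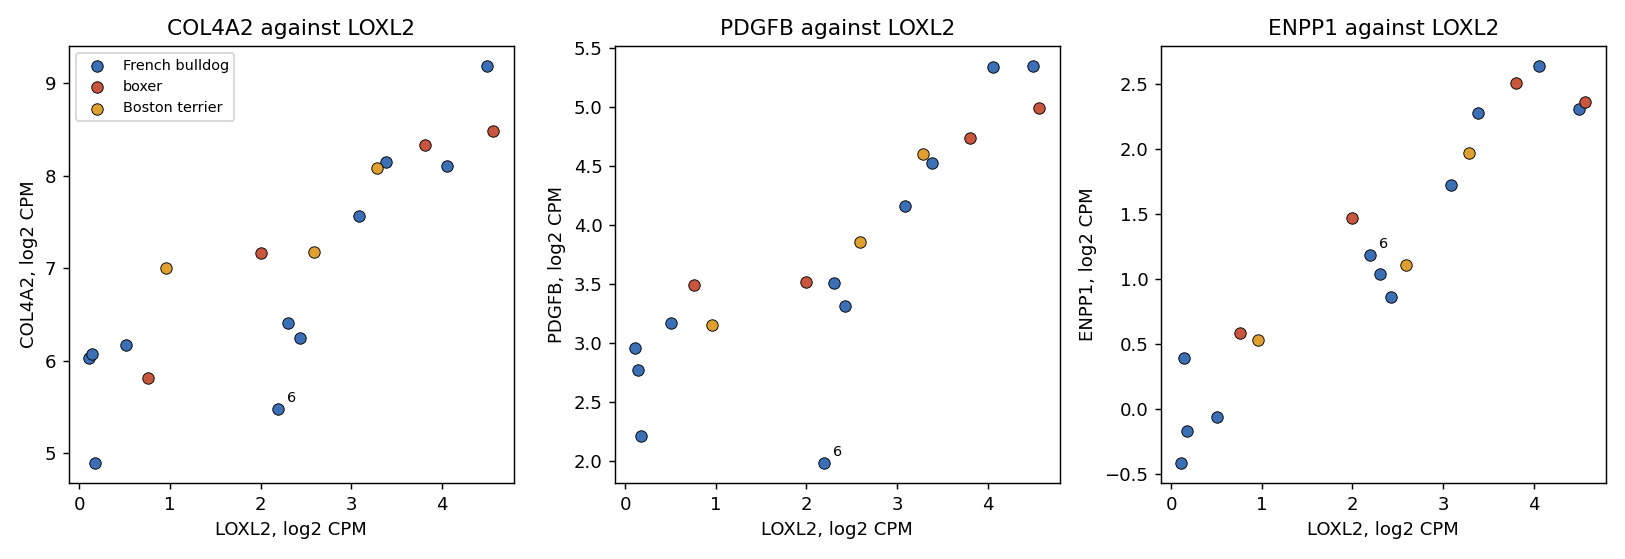
Log2 CPM (prior count of 2) of COL4A2, PDGFB and ENPP1 against that of LOXL2, with 1 point per library coloured by breed. The 3 genes rise with LOXL2 over the 18 libraries (rho of 0.895, 0.897 and 0.940), and French bulldog 6 lies apart from that trend for COL4A2 and PDGFB.

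The genes most like the other members were the following. For LOXL4, CFAP251 had a rho of 0.868 and PYROXD2 of 0.847. LOXL4 was chosen for its breed difference, so any gene lower in French bulldogs gains rho over the pooled libraries from that choice. The rho of CFAP251 was 0.836 within French bulldogs and 0.714 within the comparison group. Those of LOXL3 were ACSS1 (0.889), PRR5L (0.870) and MAFK (0.864), and none of these 3 stayed among its first 3 without French bulldog 6. For LOXL1 the genes were AFDN (0.825), SVEP1 (0.808), a large matrix protein, and CAPRIN2 (0.798), and for LOX they were ATG4A (0.796), AFF1 (0.789) and TSPO (0.783).

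PYROXD2 is also the gene next to LOXL4. The counts were made on another assembly than UU_Cfam_GSD_1.0, whose RefSeq gene order is used here. There R3HCC1L and CRTAC1 precede LOXL4, and PYROXD2, a pyridine nucleotide-disulphide oxidoreductase, and HPS1, a gene of lysosome-related organelles, follow it. The neighbours were looked at after the likeness of PYROXD2 was seen. In normalized CPM, PYROXD2 was at 19.8 ± 16.7 (SD, n = 11) for French bulldogs and 53.7 ± 29.8 (SD, n = 7) for the other dogs. Its log2 fold change was -1.44 (SE 0.51), given without a test, since it was picked for ranking the libraries like LOXL4, which was itself chosen for its breed difference. HPS1 was at 14.6 ± 5.16 (SD, n = 11) and 34.9 ± 25.5 (SD, n = 7) normalized CPM. Its log2 fold change was -1.26 (SE 0.33, edgeR adjusted p = 0.433), which did not pass the threshold over all genes. Without boxer 1 the log2 fold change of HPS1 was -0.81, and without boxers 1 and 3 it was -0.78.

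The neighbours on the other side gave -1.23 (SE 0.61, edgeR adjusted p = 0.488) for CRTAC1 and 0.39 (SE 0.24, edgeR adjusted p = 0.562) for R3HCC1L on the log2 scale. Boxer 1, highest in LOXL4, was also highest in HPS1, with 90.6 normalized CPM where the other comparison libraries had 15.8 to 36.5 and the French bulldogs 4.33 to 21.5. Spearman's rho with LOXL4 over the 18 libraries was 0.783 for HPS1, 0.443 for CRTAC1 and -0.03 for R3HCC1L. Within French bulldogs rho was 0.800 for PYROXD2 and 0.664 for HPS1, and within the comparison group it was 0.464 and 0.750. Without boxers 1 and 3 it was 0.879 and 0.700 over the other libraries. For CRTAC1 rho was -0.136 within French bulldogs, 0.179 within the comparison group and 0.376 without boxers 1 and 3. The values of R3HCC1L were 0.218, 0.357 and 0.009.

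**Figure D3:**
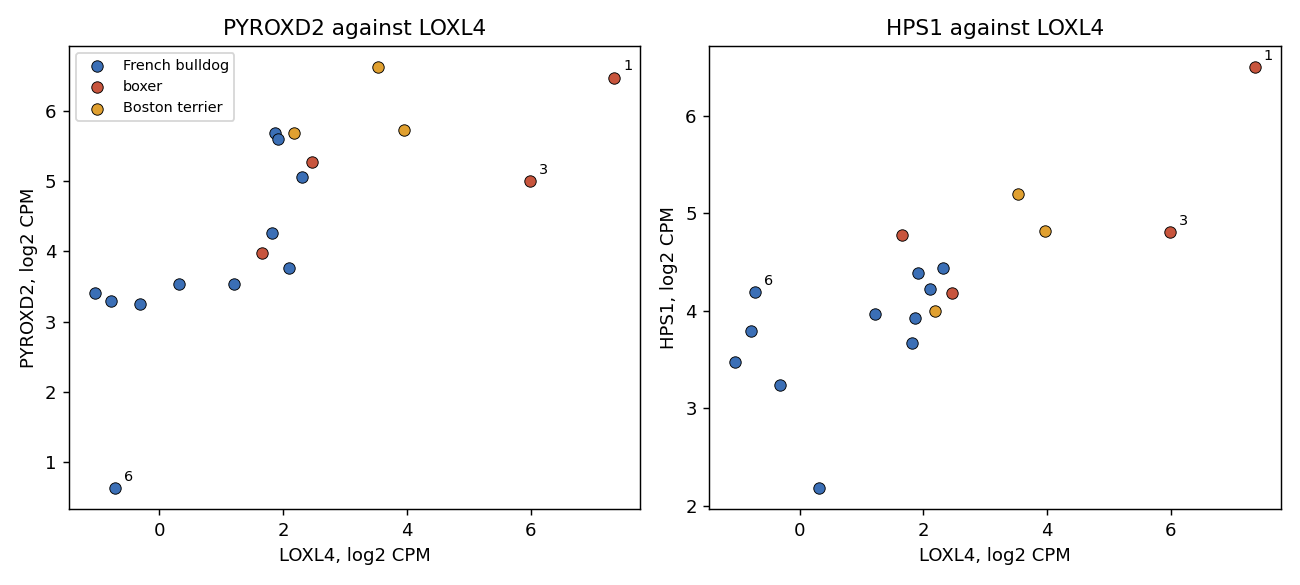
Log2 CPM (prior count of 2) of PYROXD2 and HPS1, the genes that follow LOXL4 in RefSeq order, against that of LOXL4, with 1 point per library coloured by breed. Boxer 1 is highest in LOXL4 and HPS1, and French bulldog 6 is lowest in PYROXD2 (1.35 normalized CPM).

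The partners of these enzymes in matrix crosslinking were read from the same edgeR fit. Of 46 partner genes, 42 were listed and tested, 26 had a log2 fold change above 0 and 16 below, and 0 had an adjusted p-value under 0.05 where 0.00606% of all genes did. One, TGFBR1, a TGF-beta receptor, had an unadjusted p-value under 0.05, as did 10.6% of all genes (log2 fold change 0.56, SE 0.23, edgeR adjusted p = 0.433). The median log2 fold change of the list was 0.16, beside 0.04 over all genes tested, and it was 0.02 without French bulldog 6. The median fell below 0 in limma-voom (-0.134), with a block for the replicate number (-0.154) and without French bulldog 11 (-0.01). It was above 0 in the other settings. COL4A1, COL18A1, TWIST1 and TGFB1 were not found by symbol and were not analysed here.

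Of the proteases and helpers that process procollagen and pro-enzymes, BMP1 had a log2 fold change of -0.27 (SE 0.36), TLL1 of 0.20 (SE 0.55), PCOLCE of -0.30 (SE 0.54), TLL2 of 0.98 (SE 0.91) and PCOLCE2 of 1.36 (SE 0.78). The fibrillar collagen substrates had wide standard errors, with COL1A1 at 1.19 (SE 0.82), COL3A1 at 0.67 (SE 0.70), COL1A2 at 0.56 (SE 0.71), COL5A1 at -0.21 (SE 0.40) and COL5A2 at -0.24 (SE 0.42) on the log2 scale. French bulldog 6 had 828 normalized CPM summed over the fibrillar collagens where the French bulldog median was 187 and the highest 841. It was the highest French bulldog for the proteases and helpers (130, the others at most 73.4). The same held for the collagen hydroxylases and chaperone (628, the others at most 424) and for copper supply (121, the others at most 71.7). Elastic fibre genes gave log2 fold changes of 0.76 (SE 0.81) for ELN, -0.34 (SE 0.20) for FBN1, 0.05 (SE 0.51) for FBLN5 and -0.27 (SE 0.28) for EFEMP2, and the other 5 genes of that list ran from -1.63 (SE 1.05) for MFAP4 to 0.70 (SE 0.56) for FBLN2. The matrix proteins FN1, POSTN and TNC were at 0.23 (SE 0.53), 0.41 (SE 0.76) and 0.05 (SE 0.60). The lysine hydroxylase PLOD2 was at 0.47 (SE 0.25), the collagen chaperone SERPINH1 at 0.42 (SE 0.41), the copper pump ATP7A, which loads these enzymes, at 0.04 (SE 0.15), the transcription factor SNAI2 at -0.33 (SE 0.50) and TGFB2 at -0.07 (SE 0.24). The edgeR adjusted p-values of these genes ran from 0.497 for PLOD2 to 0.988 for TNC. The partner genes not named so far had log2 fold changes between those of SNAI1 (-0.34, SE 0.34) and P4HA1 (0.57, SE 0.37).

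Hypoxia is known to induce LOX. Of 12 hypoxia targets, 10 were listed and tested, 5 were above 0 and 5 below, and 0 had an adjusted p-value under 0.05. CA9, a carbonic anhydrase, had the only unadjusted p-value under 0.05, a share of the 10 near the 10.6% of all genes, with a log2 fold change of -1.17 (SE 0.41, edgeR adjusted p = 0.433). Its levels were 1.21 ± 0.605 (SD, n = 11) normalized CPM for French bulldogs and 2.73 ± 1.82 (SD, n = 7) for the other dogs. VEGFA, an angiogenic growth factor, had a log2 fold change of -0.88 (SE 0.49, edgeR adjusted p = 0.520). Summed over the hypoxia targets, French bulldog 6 had 1180 normalized CPM, where the other French bulldogs had 372 to 785.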

How the data were processed

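The authors made RNASeq libraries from FFPE scrolls with a ribodepletion kit, trimmed the paired-end reads (Trimmomatic 0.33), mapped them to the dog genome canFam6 (HISAT2 2.1.0) and deposited raw counts per gene from featureCounts, without normalization. Strand and multi-mapping settings are not given in the sources used here, and the labels and the methods name different sequencers. Groups came from the breed labels.

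The 11 French bulldogs were compared with the 7 other dogs by the quasi-likelihood F test of edgeR 4.0.16 in R 4.3.3 (TMM, filterByExpr, robust, two-sided) with Benjamini-Hochberg adjustment over all genes and a threshold of 0.05. Normalized CPM are counts scaled by TMM library size, and log2 CPM used a prior count of 2. The correlations between members and with marker sums used a smaller offset on the counts. In those with marker sums, French bulldogs 2 and 8 were taken as 1, with member counts summed and marker sums averaged. The edgeR fit was also run on simulated counts, and that outcome is not reported here. Boxers were compared with Boston terriers in a fit of 3 breeds. Pairs of members were tested by permutation (100000 resamples, or exact). Alternatives were DESeq2 1.42.0, limma-voom (limma 3.58.1), other normalizations, no filter, and other sets of libraries. The DESeq2 Wald test is the one the study used.

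Members and lists were chosen with earlier results of these data known. Named genes were the members, a set of partner and hypoxia genes whatever their values, the 3 genes most like each member, and defining markers. The result of 1 gene that this rule names is not reported here. Others, such as TGFBR1, TLL2, PCOLCE2, MFAP4, FBLN2, SNAI1, P4HA1, COL5A1, COL5A2 and the neighbours, and the relations with marker sums, were chosen after values were seen. No protein or promoter sequence was used here. Floors cover counting error only. The numbers in the titles of French bulldogs and comparison dogs did not pair the libraries. Figures were drawn with matplotlib 3.10.9.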

Additional observations from a re-analysis of the deposited data

Results flagged for a closer look

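Boxer 1 stood far from the other 6 comparison libraries in LOXL4, at 163 normalized CPM. The gap to the next library, boxer 3 at 62.9, was 0.625 of the range of the group. The genes were chosen for the unevenness of LOXL4 in these libraries, so this distance is a description and no test is drawn from it. None of the other 4 genes had a library as far from the rest of the comparison group, with gaps of 0.152 to 0.443 of the range.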

How the results depend on the processing

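No choice of processing brought LOX, LOXL1, LOXL2 or LOXL3 to an adjusted p-value under 0.05, and adjusted p-values over the 13 settings other than single libraries left out were 0.756 to 1, 0.562 to 1, 0.815 to 1 and 0.658 to 1. LOXL1 stayed above 0 in every setting run. LOXL4 stayed below 0, but it was chosen for being lower in these same French bulldogs, so its sign is a description only. The LOXL4 log2 fold change was -2.23 against Boston terriers only, -2.28 against library numbers S1 to S3 only and, in a setting chosen after seeing the data, -1.83 without boxers 1 and 3. The LOX log2 fold change, close to 0 in the main fit, turned to 0.011 with DESeq2's size factors in edgeR, 0.028 without a filter and 0.0098 in DESeq2. It was 0.082 with French bulldogs 2 and 8 summed, 0.34 against boxers only and 0.28 against S1 to S3 only. In limma-voom LOX was at -0.65, its lowest value. LOXL3 turned to -0.26 in DESeq2 and -0.10 in limma-voom, and LOXL2 to 0.27 against Boston terriers only; the cause was not tested. Genes called over the whole table, 1 in all libraries, were 2 with upper quartile normalization, 58 in DESeq2 (35 higher, 23 lower), 2 in limma-voom and 0 with French bulldogs 2 and 8 summed, against boxers only, against S18 to S21 only, against S1 to S3 only or without boxers 1 and 3. With 1 library left out in turn, the count of genes called ran from 0 to 7 (7 without French bulldog 9, 3 without French bulldog 6), LOX from -0.48 to 0.14, LOXL1 from 0.28 to 0.70, LOXL2 from -0.68 to 0.19 (0.19 without boxer 3), LOXL3 from -0.26 to 0.58 and LOXL4 from -4.30 (without Boston terrier 2) to -2.95 (without boxer 1). For boxers over Boston terriers, LOXL1 ran from 0.74 to 1.09 and LOXL4 from 1.20 to 2.89, and 0 genes were called in each setting run. There LOX ran from -1.31 to -0.48, LOXL2 from 0.15 (without boxer 3) to 1.49 and LOXL3 from 0.06 to 0.30.

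The numbers 1 to 7 in the titles did not pair the libraries: the correlation of same-numbered deviations ran from -0.50 to 0.21. A replicate block for the number called 0 genes where the same 14 libraries without the block, a setting added after seeing the data, called 5. LOXL3 was -0.054 with the block, LOX was 0.21 without it, and LOXL4 was -3.40 with and -4.57 without it.

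Depth limited LOX, LOXL2 and LOXL4 in French bulldogs, where several libraries held under 10 counts of each. With the set of library numbers as a block in the 7 comparison libraries, boxers over Boston terriers gave -1.45 for LOX and 1.45 for LOXL4, beside -0.79 and 2.46 without that block.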

Other observations

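The levels of the members were also set against summed marker levels of 9 cell types, a comparison chosen after seeing the data. This was done within French bulldogs (2 and 8 taken as 1, 10 values), without library 6 (9 values) and within the comparison group (7 values). There were 135 relations in all. Those of LOXL4 in the comparison group are left aside, since its levels there chose the genes, and none of the others had an adjusted p-value under 0.05. LOXL2 and the endothelial markers had an r of the same sign in each set: r was 0.845 in French bulldogs (permutation p = 0.00263, adjusted p = 0.118; rho = 0.842, permutation p = 0.00384, adjusted p = 0.173; r = 0.787 without the 2 libraries farthest from the LOXL2 median) and 0.859 in the comparison group (exact permutation p = 0.0177, adjusted p = 0.183; rho = 0.857, exact permutation p = 0.0238, adjusted p = 0.412; r = 0.727 without those 2). LOXL3 and the oligodendrocyte lineage markers had an inverse relation in French bulldogs (r = -0.956, permutation p = 0.00041, adjusted p = 0.0553; rho = -0.794, permutation p = 0.00863, adjusted p = 0.291; r = -0.95 without the 2 farthest), and without French bulldog 6 r was -0.821 (exact permutation p = 0.00848, adjusted p = 0.161). In the comparison group r was -0.192 (exact permutation p = 0.663, adjusted p = 0.933) and 0.127 without the 2 farthest. LOXL3 and the macrophage and microglia markers had r = 0.934 in French bulldogs (permutation p = 0.00174, adjusted p = 0.117; r = 0.727 without the 2 farthest) and 0.0428 in the comparison group (exact permutation p = 0.924, adjusted p = 0.98).

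French bulldogs 2 and 8 resembled each other in every member: they had 0.223 and 0 normalized CPM of LOX, 23.0 and 27.1 of LOXL1, 0.892 and 0.916 of LOXL2, 6.69 and 5.29 of LOXL3, and 3.46 and 3.56 of LOXL4.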
